A study of Mus musculus with 41 samples.

Results

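The Myc family and its partners were followed in 41 mouse mammary tumors as the 8 gene symbols Myc, Mycn, Mycl, Pvt1, Max, Mxd1, Mxi1 and Mnt. The genes were taken by symbol, and each had 1 entry among the 47480 symbols of the deposited table. All 8 passed the filter on low values and were tested with 17208 genes in all. Of these tumors 28 were Plk2-/-; p53-/- and 13 were p53-/-, all on the Balb/c background and with 1 library of bulk tumor RNA each, and the question put to them was how losing the kinase Plk2 on top of p53 changes the tumor. All 41 are labelled p53-null, and no deletion of Plk2 is labelled for the p53-/- tumors. The study's design describes tumors grown orthotopically in untreated syngeneic hosts after serial transplantation. The labels do not give the transplant round of a tumor. The Plk2-/-; p53-/- tumors began as knockout mammary epithelium placed in cleared fat pads of wild-type hosts, and 7 of them (PLK2null-7747, PLK2null-7748, PLK2null-7749, PLK2null-7750, PLK2null-7753, PLK2null-7763 and PLK2null-7764) are followed by name in the study as primary tumors. The labels do not say which of the other 21 descend from these, so p-values measure the spread between tumors that may share an origin. Every p53-/- title ends in a name and number (ROSEN-n) that the Plk2-/-; p53-/- titles lack and that the labels do not explain, so whatever it marks and the genotype cannot be told apart.

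Myc, Mycn (N-Myc) and Mycl (L-Myc) are transcription factors that bind DNA as dimers with Max, at E-boxes with the letters CACGTG, and raise genes of growth and ribosome production. Mxd1, Mxi1 and Mnt also dimerize with Max at these sites but recruit Sin3 corepressors, so that they oppose Myc. Pvt1 is a long noncoding RNA gene next to Myc, and the pair is often amplified together in tumors, breast cancers included.

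Values are deposited estimated counts scaled so that the upper quartile of each tumor is 1000, and a value is written below without a unit. Depth was 31910319 to 53244315 fragments on genes in the Plk2-/-; p53-/- tumors and 29409526 to 70868089 in the p53-/- tumors, and 3 reads, the floor used here, were worth 1.16 to 2.45. Plk2 had a median of 284 in the Plk2-/-; p53-/- tumors and 3402 in the p53-/- tumors, and 12 of the 13 p53-/- values lay above all 28 others. The exception was the library labelled p53null-7435, at 186, within the Plk2-/-; p53-/- range. Without it the genotype differences, on the log2 scale by limma, were 0.37 for Myc (adjusted p = 0.0320), -1.71 for Mycl (0.0473), 0.75 for Mxd1 (0.000938) and 0.67 for Mnt (4.21e-05), and no call of the 8 genes changed. The summed value of 8 epithelial markers was 404, 88.7 and 53.6 in PLK2null-732, PLK2null-733 and PLK2null-743, against a median of 84430 over the 28 Plk2-/-; p53-/- tumors, and their 6 endothelial markers summed to 165585 to 186496, against a median of 4889. These 3 tumors, which the study calls claudin-low, went against the label of a mammary epithelial tumor by these markers, and results are also given without them and without T11, the claudin-low p53-/- tumor.

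Promoter windows of 6 of the 8 genes were read from RefSeq on GRCm38.p6, from 250 bases before to 10 bases after the start of transcription, and there was no entry for Myc and Pvt1. The E-box CACGTG, which reads the same on both strands, was in the windows of Mnt and Max and in no window of Mycl, Mxd1, Mycn or Mxi1, the last with 3 windows. Of all 32544 windows of that length, 6.35% held it. The first pair below shows the E-box of Mnt and Max in capitals, with its first base at -123 for Mnt and at -3 for Max relative to the start. The second pair, Mycn and Mycl, is shown because these genes were high in the same tumors.
Mnt, chr11:74830674-74830933, plus strand: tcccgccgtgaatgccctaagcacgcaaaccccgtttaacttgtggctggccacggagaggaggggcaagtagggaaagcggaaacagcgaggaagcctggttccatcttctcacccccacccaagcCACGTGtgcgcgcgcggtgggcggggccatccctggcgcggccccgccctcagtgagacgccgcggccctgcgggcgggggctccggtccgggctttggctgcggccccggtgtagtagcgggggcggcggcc
Max, chr12:76962239-76962498, minus strand: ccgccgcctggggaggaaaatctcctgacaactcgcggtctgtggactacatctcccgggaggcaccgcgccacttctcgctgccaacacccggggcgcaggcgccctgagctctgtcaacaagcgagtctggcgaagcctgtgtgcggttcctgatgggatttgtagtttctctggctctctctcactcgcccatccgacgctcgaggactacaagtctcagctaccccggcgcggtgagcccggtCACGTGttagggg
Mycn, chr12:12941827-12942086, minus strand: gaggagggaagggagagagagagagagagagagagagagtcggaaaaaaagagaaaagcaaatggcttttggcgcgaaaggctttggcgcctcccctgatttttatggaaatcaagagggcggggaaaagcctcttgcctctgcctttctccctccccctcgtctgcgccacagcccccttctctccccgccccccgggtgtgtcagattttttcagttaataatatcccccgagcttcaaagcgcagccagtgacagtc
Mycl, chr4:122995681-122995940, plus strand: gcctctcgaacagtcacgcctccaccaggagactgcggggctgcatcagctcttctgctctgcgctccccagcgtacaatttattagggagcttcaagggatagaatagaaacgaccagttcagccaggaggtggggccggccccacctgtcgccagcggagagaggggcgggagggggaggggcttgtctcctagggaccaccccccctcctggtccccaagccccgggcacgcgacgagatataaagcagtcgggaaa
A match is a match of letters in the window and no measure of binding.

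Per kilobase of exon, all transcripts merged, Myc was the most abundant of the 8 genes. Its median level was 1320 per kilobase over the 41 tumors, followed by Max at 462, Mxi1 at 296, Mnt at 277, Mxd1 at 117, Mycl at 29.2, Pvt1 at 24.8 and Mycn at 10.7. Myc exceeded Max in 41 of 41 tumors, Max exceeded Mxi1 in 38 and Mnt exceeded Mxd1 in 41. Mxi1 and Mnt were not separated, with Mxi1 above in 24 of 41 tumors, and neither were Mycl and Pvt1 (21 of 41) or Pvt1 and Mycn (24 of 41). With the longest transcript as the length, the median level was 856 for Max, 401 for Mxi1 and 279 for Mnt per kilobase, Myc exceeded Max in 39 tumors and Mxi1 exceeded Mnt in 33 of 41, and Pvt1 passed Mycl. The plot of levels by tumor shows how differently the genes spread: Max lay within 1118 to 2432 over all 41 tumors, whereas Mycn ran from 1.497 to 1618.

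**Figure D1:**
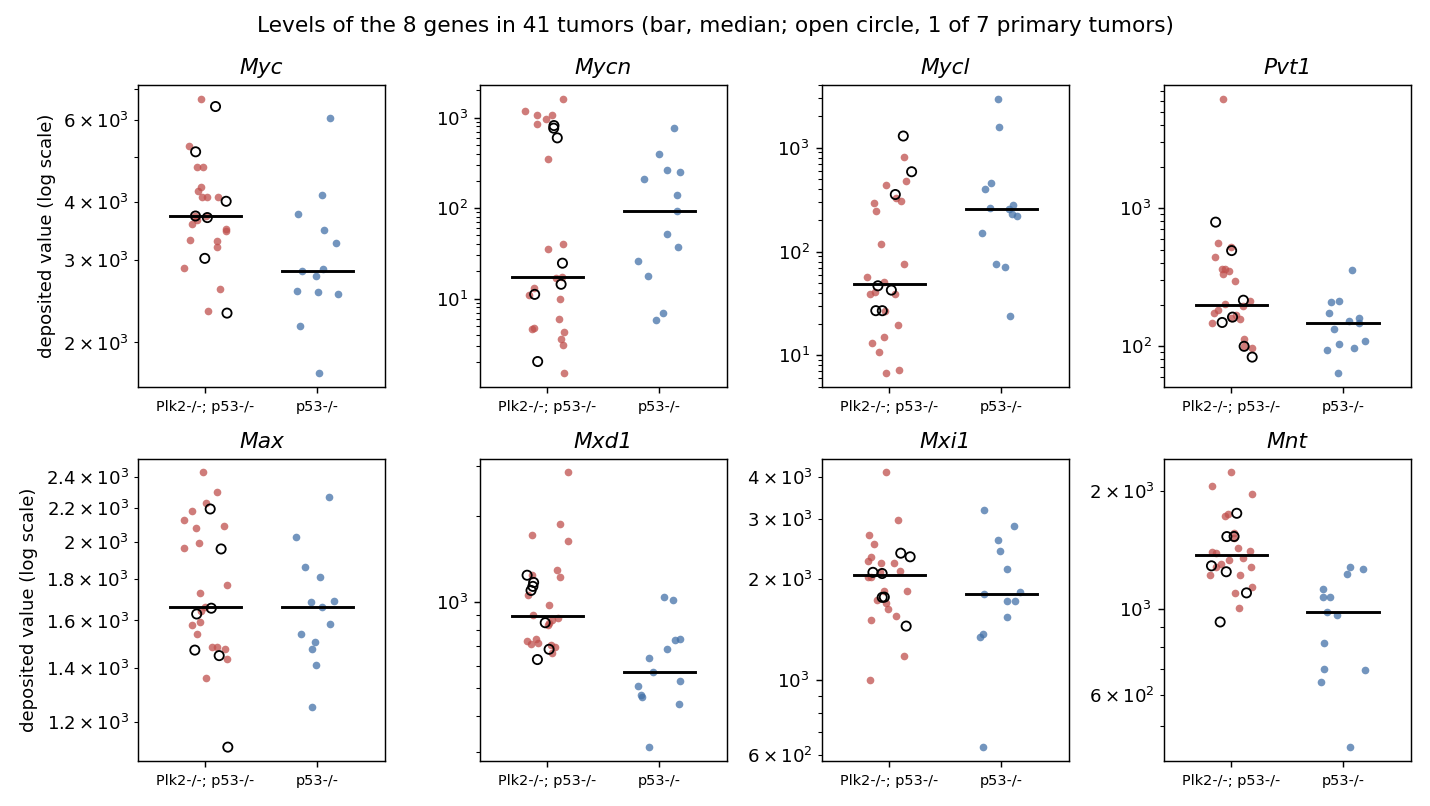
Deposited values of the 8 genes on log axes, with a point for each of 28 Plk2-/-; p53-/- and 13 p53-/- tumors, a bar at the median and open circles for the 7 primary tumors. Mycn and Mycl fall into a high and a low set in the Plk2-/-; p53-/- tumors, 1 tumor stands apart for Pvt1, and Mnt lies higher in 20 of the 28 than in any p53-/- tumor.

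In the genotype comparison 4 of the 8 genes were called, Myc, Mxd1 and Mnt higher and Mycl lower in the Plk2-/-; p53-/- tumors, by limma with Benjamini-Hochberg adjustment over all genes tested. Of all genes tested 39.5% were called, 24.3% higher and 15.3% lower, so the share of the 8 was near that of any gene. After rescaling by trimmed means (TMM) 3 of the 8 were called, Mycl, Mxd1 and Mnt, against 40.5% of genes (17.3% higher and 23.2% lower). With only the 7 primary tumors set against the p53-/- tumors 1 of the 8 was called, Mxd1, against 17.3% of genes (11.6% higher). The median log2 fold change over all genes was 0.10, so a member's change is read against that. Scaling decided the split over all genes: 4175 genes were higher and 2627 lower as deposited, 2973 and 3988 after TMM rescaling, whose median was -0.09. The fold change also followed the transcript, with Spearman's rho over 16600 genes of 0.31 with transcript length and -0.25 with GC content, a description over genes that are not independent. In 10 bins of genes its median went from -0.40 for the shortest transcripts to 0.55 for the longest, and each member is therefore given also after the trend of every tumor with length and GC content was removed, an alternative chosen after seeing the data. With that trend removed 4 of the 8 were called, the same genes, against 34.5% of 16600 genes (15.4% higher and 19% lower).

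**Figure D2:**
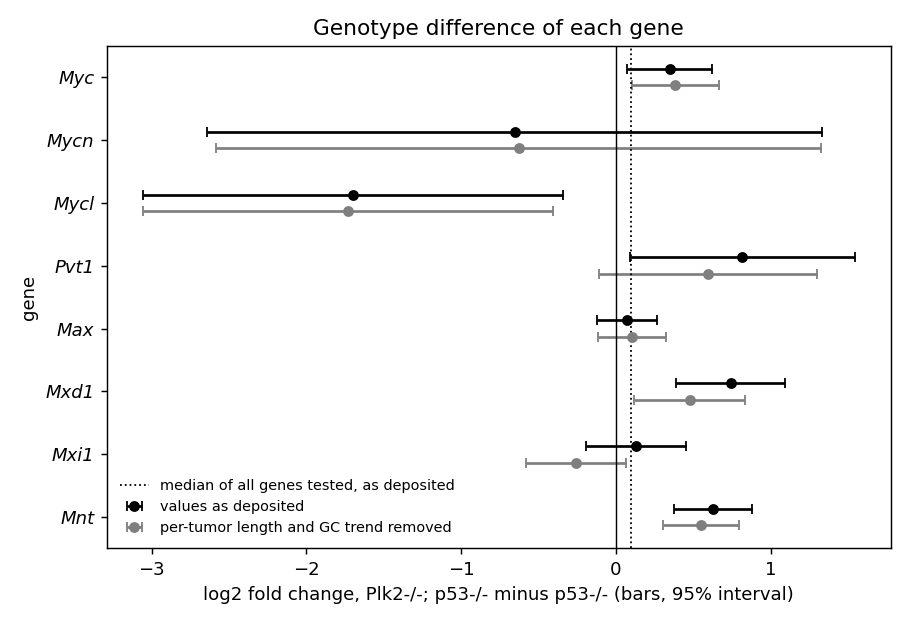
Log2 fold change of each gene, Plk2-/-; p53-/- minus p53-/-, with 95% intervals from limma (28 against 13 tumors), as deposited (black) and after removal of each tumor's trend with transcript length and GC content (grey); the dotted line is the median of all genes tested, 0.10. Mnt and Mxd1 lie right of the dotted line in both, Mycl lies left of 0, and Mxi1 moves from 0.13 to -0.26.

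Myc lies on chromosome 15 of GRCm38 (mm10) from 61985391 to 61990374 on the plus strand in GENCODE vM21. Its values ran from 2312 through a median of 3734 to 6665 in the Plk2-/-; p53-/- tumors and from 1717 through 2850 to 6044 in the p53-/- tumors. The highest were PLK2null-1974 (6665), PLK2null-7753 (6412) and p53null-2224L (6044), the groups overlapped almost throughout, and 25 of the 28 Plk2-/-; p53-/- tumors lay above the p53-/- median. Myc rose by a log2 fold change of 0.35 (SE, 0.14) with an adjusted p of 0.0405 in limma and a permutation p of 0.0133 (2-sided, 100000 resamples). That call was lost under TMM rescaling (0.16, adjusted p = 0.372), quantile normalization (0.31, 0.0805), with the 7 primary tumors (0.37, 0.290) or the other 21 (0.34, 0.0574), and without PLK2null-1974 (0.32, 0.0539), all limma. It was also lost in 14 of 41 fits that each left out 1 tumor (adjusted p up to 0.0990), namely PLK2null-1974, PLK2null-1986, PLK2null-1987, PLK2null-1988, PLK2null-7747, PLK2null-7753, p53null-10151, p53null-10152, p53null-10155, p53null-2153L, p53null-2208L, p53null-2396R, p53null-5317 or p53null-5329. With the length and GC trend removed it was 0.38, adjusted p = 0.0286 in limma.

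Mycn, on chromosome 12 from 12936093 to 12941914 on the minus strand, showed the widest range of the 8 genes. It ran from 1.497 through a median of 17.2 to 1618 in the Plk2-/-; p53-/- tumors and from 5.85 through 92.0 to 775 in the p53-/- tumors. In the Plk2-/-; p53-/- tumors 10 lay at 348 or above and 18 at 40.4 or below, with no tumor between, whereas the widest gap among the p53-/- tumors was from 6.92 to 17.7. The 10 were PLK2null-7747, PLK2null-1963, PLK2null-1964, PLK2null-1965, PLK2null-1971, PLK2null-7748, PLK2null-7763, PLK2null-732, PLK2null-733 and PLK2null-743. The lowest, PLK2null-1988 at 1.497 and PLK2null-7750 at 2.02, were at or under the floor of 3 reads. The genotypes differed by -0.65 on the log2 scale (95% interval, -2.64 to 1.33; limma adjusted p = 0.632; permutation p = 0.519), which leaves a change of several-fold either way within the interval.

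Mycl, on chromosome 4 from 122995652 to 123002485 on the plus strand, was lower in the Plk2-/-; p53-/- tumors. It ran from 6.70 through a median of 49.0 to 1297 there and from 23.8 through 255 to 2970 in the p53-/- tumors. The highest values, 2970 in p53null-2331L and 1598 in p53null-5317, lay above every Plk2-/-; p53-/- tumor, 6 of the 28 lay below every p53-/- tumor, and the rest overlapped. Mycl fell, at a log2 fold change of -1.70 (SE, 0.67) with a limma adjusted p of 0.0407 and a permutation p of 0.0186. Only the 7 primary tumors gave -1.03 (limma adjusted p = 0.474), testing without a filter on low values gave an adjusted p of 0.0572, and the call was lost in 16 of 41 fits that left out a tumor (adjusted p up to 0.0950), namely PLK2null-1975, PLK2null-1980, PLK2null-1984, PLK2null-1985, PLK2null-1986, PLK2null-1988, PLK2null-1989, PLK2null-7749, PLK2null-7753, p53null-10151, p53null-10155, p53null-2153L, p53null-2224L, p53null-2331L, p53null-2396R or p53null-5317. TMM rescaling gave -1.88 (limma adjusted p = 0.0175) and removal of the length and GC trend -1.73 (0.0366).

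Mycn and Mycl were high in the same Plk2-/-; p53-/- tumors: the 10 tumors above the gap of Mycn were the 10 with the highest Mycl, at 246 to 1297, and the other 18 had 6.70 to 118. Within the 10, Pearson's r of the log2 values was -0.22 and Spearman's rho -0.24, and within the 18 they were 0.31 and 0.29, given without p because tumors may share an origin. In the 13 p53-/- tumors r was 0.60 (permutation p = 0.0255) and rho 0.62 (p = 0.0281), and r was 0.62 without the 2 tumors farthest from the median of Mycn, in a pair chosen after its values were seen. The labels do not give the origins of these 13 either, so these p-values assume an independence that is not shown. PLK2null-1974 had low Mycn at 4.67 and the highest Mycl of the 18, at 118. Marker sums of other cell types moved with both genes over the 28 tumors, as a description: Pearson's r was -0.72 for Mycn and -0.74 for Mycl with macrophage markers, -0.64 for each with neutrophil markers, -0.61 and -0.55 with fibroblast markers, and -0.55 and -0.48 with epithelial markers. In the 13 p53-/- tumors these lay between -0.39 and 0.06. Endothelial markers went the other way, with r of 0.48 for Mycn and 0.39 for Mycl over the 28 tumors (rho, 0.23 and 0.08). Over the 13 these were 0.39 and 0.32. PLK2null-732, PLK2null-733 and PLK2null-743, high in endothelial and low in epithelial markers, are among the 10. The part of these cell types or of subtype in the 2 genes was not tested.

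**Figure D3:**
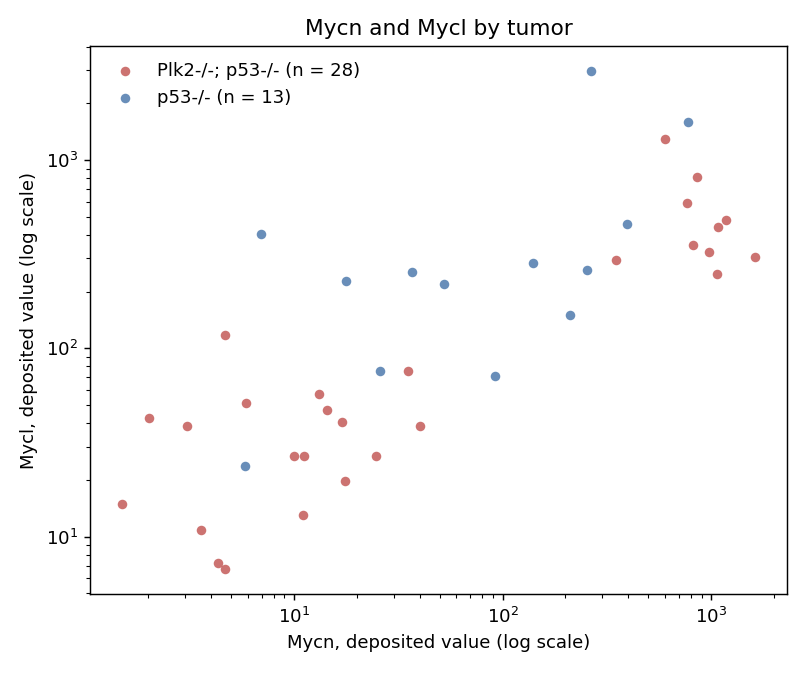
Mycl against Mycn by tumor, both as deposited values on log axes, with 28 Plk2-/-; p53-/- tumors in red and 13 p53-/- tumors in blue. The 10 red points at the upper right have Mycn of at least 348 and Mycl of at least 246, the other red points have Mycn of at most 40.4, and the blue points fill the range between.

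Each of the 21 other Plk2-/-; p53-/- tumors was set beside the primary tumor whose profile over all genes it correlated with most, as a description of likeness and not of descent. Some placements were near ties: PLK2null-1967 had r = 0.232 with PLK2null-7749 and 0.229 with PLK2null-7748, and PLK2null-1970 had 0.241 with PLK2null-7749 and 0.240 with PLK2null-7750. Mycn was alike within most sets, with those near ties as placed. The tumors closest to PLK2null-7747 (PLK2null-1963, PLK2null-1964, PLK2null-1965 and PLK2null-1971) had Mycn of 348 to 1618 with it, and those closest to PLK2null-7763 (PLK2null-732, PLK2null-733 and PLK2null-743) 764 to 1181 with it. Those closest to PLK2null-7750 had 2.02 to 11.1, to PLK2null-7753 1.497 to 11.2, to PLK2null-7764 10.05 to 16.9 and to PLK2null-7749 4.67 to 40.4, each range including that primary tumor. Myc did not separate the sets in this way, with ranges of 3309 to 5127 beside PLK2null-7747, 4016 to 4754 beside PLK2null-7750 and 2312 to 6665 beside PLK2null-7749. No tumor was closest to PLK2null-7748, with Mycn at 597 and Mycl at 1297.

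**Figure D4:**
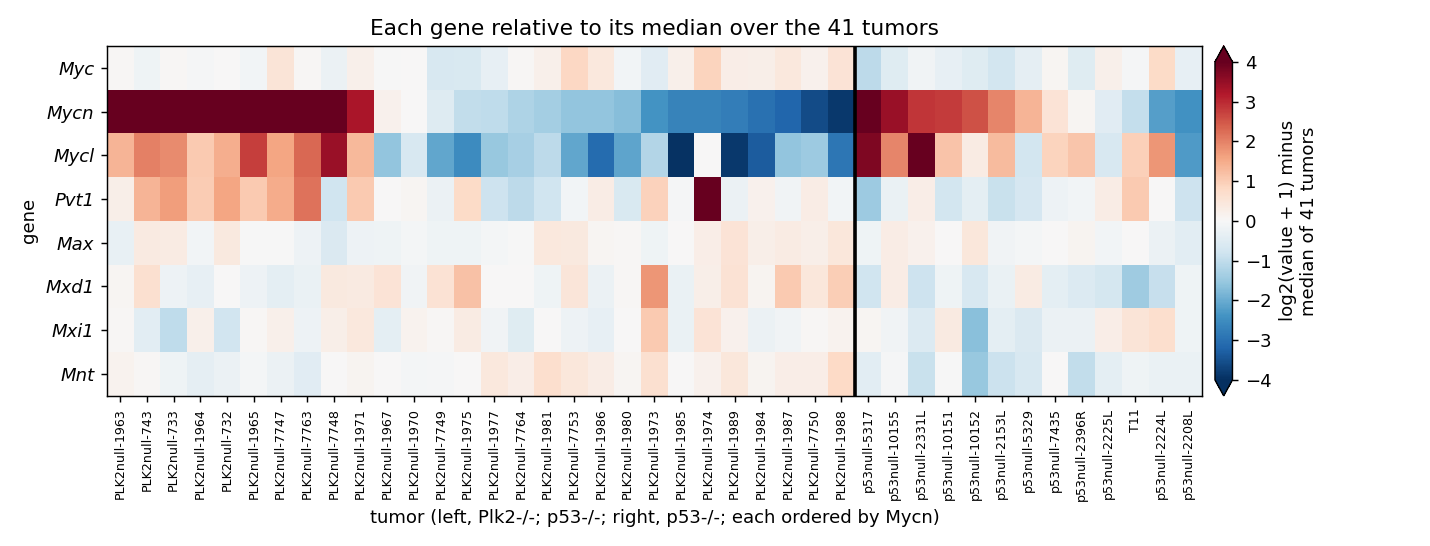
Log2(value + 1) of each gene (rows) minus its median over the 41 tumors, by tumor (columns), with the Plk2-/-; p53-/- tumors left of the line and the p53-/- tumors right of it, each ordered by Mycn; colors end at -4 and 4. The left 10 columns are high for Mycn and Mycl together, PLK2null-1974 stands out for Pvt1, and Max changes least across columns.

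Pvt1 lies downstream of Myc on chromosome 15, from 62037986 to 62378096 on the plus strand. Its values ran from 83.2 through a median of 199 to 6203 in the Plk2-/-; p53-/- tumors and from 63.4 through 146 to 357 in the p53-/- tumors. A single tumor, PLK2null-1974, stood far above the rest at 6203, 35.7 times the median of all 41, and the next were PLK2null-7763 at 791 and PLK2null-733 at 554. The log2 fold change was 0.82 (SE, 0.36), with a limma adjusted p of 0.0678 and a permutation p of 0.0136, so the gene was not called. Without PLK2null-1974 it was 0.64 (limma adjusted p = 0.0517), without PLK2null-7764 or without T11 the gene was called, with adjusted p down to 0.0399, and with the length and GC trend removed it was 0.59 (0.190). Pvt1 was at or above 203 in all 5 tumors of the PLK2null-7747 set and at or above 444 in all 4 of the PLK2null-7763 set, while PLK2null-7764 and the tumors closest to it had 83.2 to 113.

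PLK2null-1974 was therefore followed along chromosome 15. Of 12 annotated genes within 1 Mb of Myc, itself included, only Myc, Pvt1 and the pseudogene Tsg101-ps passed the filter, and Tsg101-ps had 66.7 in this tumor against a median of 78.2. The pseudogene H2afy3, within the span of Pvt1 on the opposite strand, had 55.1 in this tumor and at most 3.49 in the other 40; whether its reads come from Pvt1 was not tested. Myc was 1.86 times its median there and the highest of 41, a much smaller excess than that of Pvt1. On the other side of Myc, Fam84b at 1.13 Mb had 18918 (median, 2601; highest of the other 40, 4983) and the noncoding 9930014A18Rik at 1.15 Mb had 4337 (median, 268; highest of the others, 1358). Of the 13 tested genes within 3 Mb these 2, Myc and Pvt1 were the 4 that were highest in PLK2null-1974. Trib1 at 2.33 Mb on that side had 3025 (median, 3229), and Fam49b and Asap1 on the Pvt1 side had 2516 (median, 2278) and 2857 (median, 1373; up to 5712 elsewhere). Farther out on the Pvt1 side, at 2.71 Mb, Adcy8 had 855 (median, 32.9; up to 2087 elsewhere, in T11). Relative to the median, the excess of Adcy8 was larger than that of Fam84b or 9930014A18Rik. Adcy8 ran from 0 to 2087 over the 41 tumors, however, and was not highest in PLK2null-1974. Whether the high values in this tumor share a cause was not tested. The genes beyond 1 Mb were chosen after their values were seen. Of all 17208 genes 48, or 0.279%, deviated upward from their median in this tumor by more than Pvt1 did. DNA copy number was not measured.

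**Figure D5:**
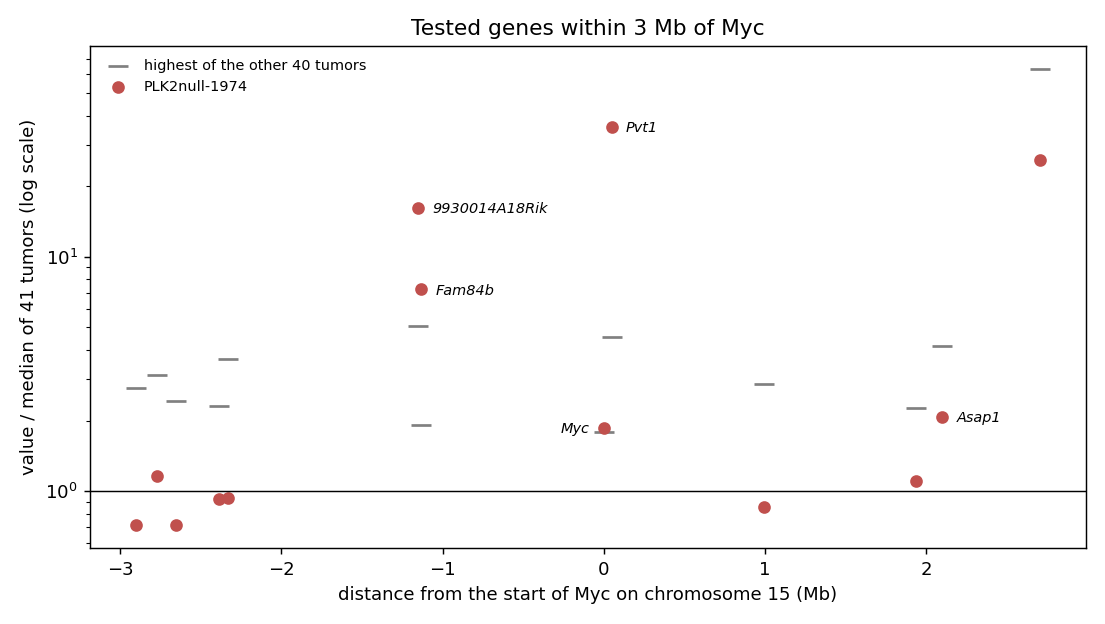
Value in PLK2null-1974 (red points) and in the highest of the other 40 tumors (grey dashes), each divided by the median of the 41 tumors, on a log axis, for the 13 tested genes within 3 Mb of Myc by distance from it on chromosome 15. Pvt1 (35.7), 9930014A18Rik (16.2), Fam84b (7.27) and Myc (1.86) lie above every other tumor, and the other 9 genes do not.

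Max, the shared partner of the family, on chromosome 12 from 76937269 to 76962201 on the minus strand, was the steadiest of the 8 genes. It ran from 1118 through a median of 1660 to 2432 in the Plk2-/-; p53-/- tumors and from 1252 through 1662 to 2271 in the p53-/- tumors. The medians nearly coincided and the groups overlapped throughout, with PLK2null-7748 lowest and PLK2null-1989 highest. The log2 fold change was 0.07 (95% interval, -0.12 to 0.27; limma adjusted p = 0.579; permutation p = 0.411). Its sign turned to -0.11 under TMM rescaling and to -0.04 with the 7 primary tumors only.

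Among the antagonists Mnt and Mxd1 were higher in the Plk2-/-; p53-/- tumors and Mxi1 was not called. Mnt, on chromosome 11 from 74830920 to 74845725 on the plus strand, ran from 925 through a median of 1371 to 2237 in the Plk2-/-; p53-/- tumors and from 442 through 982 to 1280 in the p53-/- tumors. Of the 28 Plk2-/-; p53-/- tumors 20 lay above every p53-/- tumor and 27 above the p53-/- median, the lowest was PLK2null-7763, and 5 p53-/- tumors lay below all 28. Mnt rose by 0.63 on the log2 scale (SE, 0.12) with a limma adjusted p of 8.09e-05 and a permutation p of 2.0e-05, the smallest that 100000 resamples can give. The call held in all 41 fits that left out a tumor, under TMM rescaling (0.45, adjusted p = 0.00875) and with the length and GC trend removed (0.55, 0.000443), all limma, and was lost with the 7 primary tumors only (0.54, 0.0802). Mnt sat in the highest of 10 bins by GC content, where the median change over all genes was -0.19, and in bin 8 of 10 by length, where it was 0.25.

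Mxd1, on chromosome 6 from 86647042 to 86669161 on the minus strand, ran from 630 through a median of 893 to 2838 in the Plk2-/-; p53-/- tumors and from 311 through 571 to 1045 in the p53-/- tumors. All 28 Plk2-/-; p53-/- values lay above the p53-/- median and 12 above every p53-/- tumor; PLK2null-1973 was highest, PLK2null-1975 next at 1878, and T11 lowest. Mxd1 rose by 0.74 on the log2 scale (SE, 0.17) with a limma adjusted p of 0.000665 and a permutation p of 4.0e-05. It was 0.56 under TMM rescaling (limma adjusted p = 0.0130), 0.48 with the length and GC trend removed (0.0328) and 0.66 with the 7 primary tumors only (0.0473). Neutrophil markers moved with it: 4 of the 7 tested of 9 were called higher in the Plk2-/-; p53-/- tumors, where 24.3% of all genes were, Cxcr2 by 1.97, Mmp8 by 1.91, Ngp by 1.56 and Csf3r by 1.33 on the log2 scale. The summed level of the 9 was 267 to 3151 (median, 1285) in the Plk2-/-; p53-/- tumors and 137 to 3263 (median, 343) in the p53-/- tumors, with Ly6g, Retnlg, Camp and Ngp at 0 in some tumors. PLK2null-1973 had the highest Mxd1 of the 41 tumors and the second highest neutrophil sum. As a description, Pearson's r of Mxd1 with the log2 sum was 0.53 over the 28 tumors and 0.67 over the 13, and that of Mnt 0.59 and 0.17. Spearman's rho for Mxd1 was 0.56 and 0.48. In the 13 p53-/- tumors this was not particular to neutrophil markers. There r of Mxd1 was 0.57 with the macrophage sum and 0.50 with the epithelial sum, against 0.16 and 0.12 over the 28. In bulk RNA fewer cells of a type and less RNA per cell cannot be told apart, and the part of neutrophils in Mxd1 was not tested.

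Mxi1, on chromosome 19 from 53310518 to 53375810 on the plus strand, ran from 1002 through a median of 2048 to 4129 in the Plk2-/-; p53-/- tumors and from 633 through 1799 to 3196 in the p53-/- tumors. The groups overlapped almost throughout, PLK2null-1973 was highest as for Mxd1, PLK2null-1974 was next in its group at 2978, and p53null-10152 stood lowest, with the next p53-/- tumor at 1345. The log2 fold change was 0.13 (95% interval, -0.19 to 0.45; limma adjusted p = 0.550; permutation p = 0.415). It turned to -0.05 under TMM rescaling and to -0.26 with the length and GC trend removed, and it was 0.0041 without p53null-10152. Mxi1 lies in bin 9 of 10 by transcript length, where the median change was 0.37.

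The level of an antagonist relative to Myc within the same tumor is a measure that no scaling of the library can move, and its genotype difference is by construction that of the gene minus that of Myc. The log2 ratio of Mnt to Myc averaged -1.44 ± 0.42 across 28 Plk2-/-; p53-/- tumors (SD) against -1.72 ± 0.53 across 13 p53-/- tumors, and that of Mxd1 to Myc -1.93 ± 0.71 and -2.33 ± 0.76. In these ratios 2 and 4 of the 28 tumors lay above every p53-/- tumor. The ratio of Max to Myc was -1.13 ± 0.32 and -0.85 ± 0.54. These ratios were computed after the values were seen and are given without a test.

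Myc was set against each of the other 7 genes in the 13 p53-/- tumors and in the 7 primary tumors, 14 relations in all, and none passed Benjamini-Hochberg adjustment over the 14. The closest were in the p53-/- tumors. Myc was lower where Mycn was higher, at r = -0.69 (permutation p = 0.00782, adjusted p = 0.109; rho = -0.65, p = 0.0180, adjusted p = 0.126), and r was -0.41 without the 2 tumors farthest from the median of Myc. Myc with Pvt1 gave r = 0.65 (permutation p = 0.0181, adjusted p = 0.127; rho = 0.73, p = 0.00676, adjusted p = 0.0946) and 0.64 without the 2 farthest. In the 7 primary tumors Myc with Max gave r = 0.70 (exact permutation p = 0.0712, adjusted p = 0.332; rho = 0.79, p = 0.0480, adjusted p = 0.224) and 0.66 without the 2 farthest, and with Pvt1 r was 0.27 (exact permutation p = 0.556; rho = 0.32, p = 0.498). Under TMM rescaling the relation of Myc with Mycn in the p53-/- tumors passed, at r = -0.78 (permutation p = 0.00106, adjusted p = 0.0148).

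By Pearson correlation of log2 values over all 41 tumors, Mycn and Mycl had 1 gene in common among their 3 closest. These correlations are a description, since groups of tumors share genotype, the unexplained ending of the title and possibly origin. Olfml2a had r = 0.91 with Mycn and 0.85 with Mycl, Ggt5 and Zfp952 followed for Mycn at 0.88 and 0.87, and Fjx1 led for Mycl at 0.89, with Pard6g at 0.84. For Myc the 3 genes were Ddx10 (0.70), an RNA helicase of ribosome production, Sik3 (0.64) and Ppp1r12b (0.62). For Pvt1 they were Cacnb2 (0.78), Pde3b (0.75) and Abcb1b (0.72), and for Max Naglu (0.72), Ppp1r9b (0.70) and Rin3 (0.69). Mnt was closest to Atxn2l (0.86), Cdk13 (0.83) and Med15 (0.82), Mxd1 to Arap2 (0.72), Lmln (0.71) and Mir155hg (0.70; 0.64 within the 28 Plk2-/-; p53-/- tumors and -0.01 within the 13 p53-/- tumors), and Mxi1 to Stau1, Nhlrc2 and Uhrf2 at 0.66 each.

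The wider Myc network was read from a list of 19 further genes, of which 8 were higher and 2 lower in the Plk2-/-; p53-/- tumors, where 24.3% of all genes were higher and 15.3% lower. The largest changes were Mga, a Max partner, with a log2 fold change of 1.04, Mycbp2 with 0.94, Trrap, a cofactor of Myc, with 0.83, and Ruvbl2, an ATPase that binds Myc, with -0.79. Mga ran from 2208.1 through 3658 to 6056 in the Plk2-/-; p53-/- tumors and from 992 through 1700 to 2891 in the p53-/- tumors, so that most of the former lay above the latter. Mga and Mycbp2 have transcripts of 13931 and 15233 bases, and with the length and GC trend removed their changes were 0.13 and 0.06 and not called. The list then had 3 higher and 1 lower, against 15.4% and 19% of 16600 genes, and under TMM rescaling 5 higher and 5 lower, against 17.3% and 23.2%. Its median log2 fold change was -0.01 against 0.10 over all genes.

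Of 12 genes that set the stability of the Myc protein 11 were tested, Cip2a not being among them, and 6 were higher and 2 lower in the Plk2-/-; p53-/- tumors, against 24.3% and 15.3% of all genes, with a median log2 fold change of 0.31. Huwe1 and Skp2, ubiquitin ligase genes, changed by 0.94 and 0.92, the ligase Stub1 by -0.63 and the deubiquitinase Usp28 by 0.45. Huwe1 has a transcript of 14579 bases. With the length and GC trend removed 0 of the list were higher and 4 lower, against 15.4% and 19% of genes, Huwe1 changed by 0.09 and Stub1 by -0.35, of which Stub1 was still called (limma adjusted p = 0.0243). TMM rescaling gave 2 higher and 4 lower, against 17.3% and 23.2%. Direction in this list thus turned with the processing, as did that of the wider network in part.

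Genes that Myc is known to activate were lower more often than higher in the Plk2-/-; p53-/- tumors, although Myc itself was not lower. Of 55 such genes 18 were lower and 4 higher, against 15.3% and 24.3% of all genes, and their median log2 fold change was -0.23. Ldha, the glycolytic lactate dehydrogenase, changed by -0.86 (SE, 0.17; limma adjusted p = 9.84e-05), with 9285 through 16375 to 32364 in the Plk2-/-; p53-/- tumors and 16468 through 29800 to 58351 in the p53-/- tumors, groups that overlapped in part. Wdr74, of ribosome assembly, and Nme2, a nucleoside diphosphate kinase, both changed by -0.83. Tert, the catalytic subunit of telomerase, went the other way by 1.16 (SE, 0.25; limma adjusted p = 0.000202), with medians of 257 and 93.3. The count was 32 lower and 1 higher under TMM rescaling, where 23.2% and 17.3% of all genes were, 24 lower and 2 higher with the length and GC trend removed, against 19% and 15.4%, and 7 lower and 1 higher with the 7 primary tumors only, where 5.69% of genes were called lower. Of 13 genes that Myc is known to repress 2 were lower, Ndrg2 by -1.66 and the CDK inhibitor gene Cdkn2c by -0.73, and 0 higher, a share of lower genes near the 15.3% of all genes.

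Across tumors of a genotype the 55 activated genes leaned toward Myc, as a description, and the lean was not particular to Myc. In the Plk2-/-; p53-/- tumors 45 of the 55 had a Pearson r with Myc above 0 (median, 0.23), against 50.2% of all genes, and in the p53-/- tumors 44 (median, 0.18), against 55.1%. For the antagonist Mxd1 4 of the 55 had r above 0 in the p53-/- tumors (median, -0.27), against 54.3% of all genes, and 20 in the Plk2-/-; p53-/- tumors (median, -0.07), against 42.4%. The antagonist Mxi1 did not share this, with 43 of the 55 above 0 in the p53-/- tumors (median, 0.17; 58.1% of all genes) and 39 in the Plk2-/-; p53-/- tumors (median, 0.15; 54.1%), numbers near those of Myc. For Mnt 35 were above 0 in the p53-/- tumors (median, 0.08; 60.2%) and 19 in the Plk2-/-; p53-/- tumors (median, -0.16; 38.2%). For Mycn the number was 5 in the p53-/- tumors (median, -0.36), against 53.7%, and 33 in the Plk2-/-; p53-/- tumors (median, 0.11), against 61.2%. Pvt1, a noncoding gene, had 41 in the p53-/- tumors (median, 0.17; 47.6%) and 47 in the Plk2-/-; p53-/- tumors (median, 0.29; 60.8%). Mycl had 9 (median, -0.27; 57.6%) and 38 (median, 0.21; 61.5%) in the same order. Max, the partner of Myc, had 6 (median, -0.41; 46.2%) and 21 (median, -0.17; 40.4%).

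Markers of some other cell types also differed between the genotypes, beside every difference above. Krt5 and Krt14, keratins of basal epithelium, differed by -5.13 and -3.06 on the log2 scale. Of 5 skeletal muscle markers 4 were lower, where 15.3% of all genes were, led by Acta1 at -2.89. With the length and GC trend removed 3 of the 5 were lower, against 19% of genes. Acta1 had medians of 3.48 in the Plk2-/-; p53-/- tumors and 16.8 in the p53-/- tumors, and Myh4 0.64 and 5.78. These lie in part near the floor of 3 reads, while Acta1 reached 1211 and 9952 in single tumors. The adipocyte gene Cidec differed by -2.28, with medians of 4.09 and 40.3. The proliferation marker Mki67 was higher by 0.95 as deposited. With the length and GC trend removed Mki67 was higher by 0.26 and not called. No T cell, B cell, endothelial or fibroblast marker was called by limma as deposited. The median log2 fold change of the 6 fibroblast markers was -0.73. With the length and GC trend removed 2 of these 6 were called lower, against 19% of genes. Under TMM rescaling it was 1 of the 6, against 23.2%. Of 7 macrophage markers tested 1 was called higher, Cd68 by 0.96, and of 8 dendritic cell markers tested 1, Zbtb46 by 1.16. Of all genes 24.3% were called higher. The median log2 fold change was 0.14 over the macrophage markers and 0.04 over the dendritic cell markers. Zbtb46 was not called with the length and GC trend removed (0.82, limma adjusted p = 0.0901). Other dendritic cell genes did not pass the test, with Cd209a at -1.30 and Siglech at -0.83. The part of these cell types in the values of the 8 genes was not tested.

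In the claudin-low tumors Mycn was high in PLK2null-732 (971), PLK2null-733 (1072) and PLK2null-743 (1181) and low in T11 (17.7). Pvt1 was 444 to 554 in the 3 and 357 in T11, the highest p53-/- value. Myc, at 3204 to 3734, stood near the median of the 41 tumors in all 4. Without these 4 tumors the genotype difference was 0.68 for Mnt, 0.68 for Mxd1, 0.38 for Myc and -1.997 for Mycl, all still called by limma (adjusted p of 7.09e-05, 0.00231, 0.0375 and 0.0190), and -1.36 for Mycn (adjusted p = 0.265).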

How the data were processed

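RNA of 41 mammary tumors was sequenced as paired reads. The submitters' processing notes name STAR 2.7.6a, Salmon 1.4.0, Picard 2.22.4, SAMtools and mm10, and the gene annotation used is not given in the sources used here. The authors deposited a linear signal, gene-level estimated counts divided by each tumor's upper quartile and set to 1000. Low values lie on steps worth 1 read, but only 73.8 to 80.3% of nonzero values were within 0.1 of a whole read, so no count model was used, and the step gives the depth.

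Genotype came from the labels. Genes with a mean of at least 10 were tested as log2(value + 1), which understates changes of low genes, by limma 3.58.1 (R 4.3.3) with no intensity trend, 28 against 13 tumors, threshold 0.05 after Benjamini-Hochberg adjustment. Single genes also had a 2-sided permutation test. Positions, lengths and GC content came from GENCODE vM21, in which 95.0% of symbols matched 1 gene. Lowess (span 0.3) removed trends with length and GC content. Between the most similar libraries, those of PLK2null-7750 and PLK2null-1984, the median gene had a chi-square of 4.85, where sampling alone gives 0.455. These libraries thus differed by more than read sampling, and each tumor was counted as 1 sample. That cannot show that tumors are independent, since tumors of a shared origin would also exceed sampling. On simulated data for this comparison over 17208 genes, 65 of 100 genes changed by log2 1, 76 of 100 changed by log2 2 and 4 of 17008 unchanged genes were called. The simulated tumors were drawn independently, with no shared origin, scaling shift or trend with length or GC content. These counts therefore do not give the rate of false calls in the real tumors.

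Named genes were the 8 members, up to 4 called genes of each Myc list with the largest fold change, the 3 genes most correlated with each member without predicted genes, genes within 1 Mb of Myc, Plk2 and Trp53. Trp53 had a log2 fold change of 0.64 (limma adjusted p = 0.0215), and a value above 0 in every tumor. It was far lower in p53null-10151 (349) and p53null-5329 (352) than elsewhere, where the lowest was 1433 in p53null-2396R. Whether its reads lie outside the deleted part is not shown by gene totals. Members and lists were chosen with earlier results of these data known. Alternatives were other pseudocounts, filters, scalings, a limma trend and fewer tumors. Other software was scipy 1.17.1, numpy 2.4.6, pandas 2.3.3, matplotlib 3.10.9 and Python 3.11.15.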

Additional observations from a re-analysis of the deposited data

How the results depend on the processing

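Genotype cannot be told apart from what the ending of the p53-/- titles marks in any setting, and Mycn values near the floor of 3 reads carry large counting error. No paired analysis was possible because the labels give the genotypes no shared replicate numbers. Mnt and Mxd1 kept direction and call under every alternative, except that Mnt was lost with the 7 primary tumors (0.54). Myc lost its call under quantile normalization (0.31), TMM rescaling (0.16), with the 7 primary tumors (0.37), the other 21 (0.34) and, chosen after seeing the data, without PLK2null-1974 (0.32). Mycl lost it with the 7 primary tumors (-1.03) and without a filter (-1.70). Max reversed under TMM (-0.11) and with the 7 primary tumors (-0.043), and Mxi1 under TMM (-0.053) and, also chosen after seeing the data, with the length and GC trend removed (-0.26). The causes were not tested, and the 3 settings that leave tumors out also had fewer tumors.

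Over fits that left out each tumor in turn, the log2 fold change was 0.28 to 0.43 for Myc, -1.98 to -1.40 for Mycl, 0.64 to 0.93 for Pvt1, 0.54 to 0.67 for Mnt, 0.66 to 0.81 for Mxd1, 0.0041 (without p53null-10152) to 0.20 (without p53null-2224L) for Mxi1, -0.94 (without p53null-2208L) to -0.37 (without p53null-5317) for Mycn and 0.04 (without p53null-2208L) to 0.11 (without p53null-10152) for Max, of which the last 3 were called in no fit. Over all genes 6802 were called, 4175 higher and 2627 lower. With the 7 primary tumors it was 2942, 1972 and 970. TMM rescaling gave 3988 lower, and removal of the length and GC trend 2561 higher. Myc with Mycn in the p53-/- tumors passed under TMM rescaling (r = -0.78), and Myc with Mxd1 in the primary tumors turned from -0.29 to 0.0135. By longest transcript the level per kilobase was 856 for Max and 401 for Mxi1.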
